A study of Mus musculus with 3 samples.

Results

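The antigen receptor loci of this report are 4 chosen stretches of the mouse genome, and no other antigen receptor locus was examined. Igh encodes the immunoglobulin heavy chain, Igk the immunoglobulin kappa light chain and Tcrb the T cell receptor beta chain. Tcra/Tcrd encodes the T cell receptor alpha and delta chains, interleaved with each other. These 4 loci are described here in fibroblasts, which do not rearrange them. The loci were delimited by fixed coordinates on mm9, the build named in the submitters' processing notes: chromosome 12 114490001 to 117250000 for Igh, chromosome 6 67500001 to 70700000 for Igk, chromosome 6 40840001 to 41510000 for Tcrb and chromosome 14 52980001 to 54850000 for Tcra/Tcrd. A fragment between neighbouring GATC sites belonged to a locus when its middle lay there, which gave 23742 of the 6415372 fragments of the series, with 7874 in Igh, 9323 in Igk, 1852 in Tcrb and 4693 in Tcra/Tcrd.

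The study measured contact with the nuclear periphery by DamID, in which a bacterial adenine methylase, Dam, is fused to a protein and marks GATC sites near it. Wild-type C57BL/6 mouse embryonic fibroblasts were transduced with murine retroviruses carrying 1 of 3 constructs, namely Dam alone or Dam joined to Lamin A or to Lap2b, with 1 sample per construct. Lamin A forms filaments of the lamina that lines the nucleus, and Lap2b sits in the inner nuclear membrane. All groups were thus transduced, wild-type cells, and they differed in the Dam construct. Retroviral expression of a fusion limits the model to a population of transduced cells, and the labels do not say how many cells carried the construct. The files hold no expression values, so the labelled cell type was not checked against marker genes. For both fusions the authors deposited a genome-wide profile of log2 values and a list of lamina-associated domains (LADs), the long stretches marked more by a fusion than by Dam alone. They are called the LMNA and Lap2b profiles and lists, after the sample titles, and where a pair of values is given without names the LMNA profile comes first. With 1 sample a group no value has a replicate check and no p-value was computed, and a mean ± SD below is over neighbouring 10 kb bins of 1 library. The SD describes the spread of single bins and not the error of a mean or of a difference between means.

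Antigen receptor genes are assembled in lymphocytes by V(D)J recombination, in which the RAG recombinase joins 1 variable (V) segment to a joining (J) segment, in some loci through a diversity (D) segment, next to the constant (C) genes. The V segments are spread over long arrays and the D, J and C genes sit together at one end. Movement of Igh and Igk between the nuclear periphery and the interior is a known feature of B cell development. Both of these loci are peripheral in cells that do not rearrange them. In RefSeq (GRCm38.p6) the loci held 638 segments and constant genes. Igh had 183 V, 20 D, 4 J and 8 C genes, Igk 162 V, 5 J and 1 C, Tcrb 35 V, 2 D, 14 J and 2 C, and Tcra/Tcrd 136 V, 2 D, 62 J and 2 C, pseudogenes included. In Tcrb 1 V segment, Trbv31, lies apart from the array, beyond Trbc2. That annotation has another build than the profiles, so it was used for names and order and no single gene was placed on the profiles.

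Each locus was therefore cut by length. The D/J/C end was a round length at the side of the constant genes, set approximately from the known layout: 300 kb in Igh, 40 kb in Igk (which has no D segments), 30 kb in Tcrb and 100 kb in Tcra/Tcrd. The remaining V part was cut at its middle bin into a proximal portion, nearer the D/J/C end, and a distal portion. Igh lies with its D/J/C end at the lower coordinate and the other loci with it at the higher one. By RefSeq order, genes of other families lie inside the arrays. In Tcrb, 8 trypsinogen and related protease genes from Try4 to Prss2 stand between Trbv30 and Trbd1, and 5 protein-coding genes, led by Prss58, between Trbv1 and Trbv2. In Tcra/Tcrd, Olfr1509, Olfr1508 and Olfr1507, which encode odorant receptors, and Gm36448 stand between Trav1 and Trav2. In Igh, Adam6b lies among the D segments, after Ighd1-1, and Adam6a, a fertility gene like Adam6b, between Ighd5-1 and Ighv5-1.

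What the assay reads at such genes is set by GATC sites. As examples at the scale of a promoter, 250 bases upstream of the start are printed for 3 genes in or beside the loci. Prss2 is the last protease gene before Trbd1, inside Tcrb. Rpia is the first protein-coding gene beyond Igkc, and Zfp386 the first beyond the V end of Igh. The sequences are from RefSeq (GRCm38.p6), 5′ to 3′ on the strand of the gene, with GATC in capitals. Prss2 and Zfp386 are on the plus strand of chromosomes 6 and 12, and Rpia is on the minus strand of chromosome 6.
Prss2: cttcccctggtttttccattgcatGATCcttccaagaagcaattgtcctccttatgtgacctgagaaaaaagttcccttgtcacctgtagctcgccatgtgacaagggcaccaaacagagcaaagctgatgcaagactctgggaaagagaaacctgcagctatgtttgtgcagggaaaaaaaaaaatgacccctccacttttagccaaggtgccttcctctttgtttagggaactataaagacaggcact
Rpia: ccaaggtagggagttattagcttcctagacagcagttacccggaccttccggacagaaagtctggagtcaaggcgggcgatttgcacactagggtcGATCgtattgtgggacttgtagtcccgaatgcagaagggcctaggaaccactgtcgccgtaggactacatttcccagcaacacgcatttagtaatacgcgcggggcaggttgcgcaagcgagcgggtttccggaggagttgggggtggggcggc
Zfp386: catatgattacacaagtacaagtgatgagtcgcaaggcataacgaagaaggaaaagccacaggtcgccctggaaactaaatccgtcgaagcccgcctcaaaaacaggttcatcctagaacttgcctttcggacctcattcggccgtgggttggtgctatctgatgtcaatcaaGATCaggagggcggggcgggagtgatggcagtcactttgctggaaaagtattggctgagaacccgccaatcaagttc
Each of the 3 windows held 1 GATC, and 41.9% of all 32851 windows of this length held at least 1. GATC reads the same on both strands. The window of Ephb6, the first protein-coding gene beyond the D/J/C end of Tcrb, also held 1. The windows of Dad1, which follows Trac, and of Adam6a, Adam6b and Tmem121 held none. Such a window lies in 1 or 2 fragments, and the values that follow are means over 10 kb bins of at least 5 fragments.

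Igh and Igk lay within lamina domains of both lists over 99.5% and 99.9% of their length, and Tcrb and Tcra/Tcrd did so over most of their V parts but not at their D/J/C ends. Of the 850 bins of the 4 loci, 773 lay in both lists, or 90.9%, where 47.9% of all 255936 bins of the genome did. The exact Clopper-Pearson 95% interval of the former share was 88.8 to 92.8%. It gives counting error of bins only and treats neighbouring bins as independent. In each list 1 LAD covered nearly all of Igh, and 1 nearly all of Igk. Bins above 0 in both profiles numbered 777, or 91.4%, against 52.4% of all bins. Bins below 0 in both numbered 43, of which 33 were in Tcra/Tcrd and 10 in Tcrb, where 37.9% of all bins were. The LMNA profile averaged 1.53 ± 0.97 over the loci and 0.20 ± 1.31 over all bins, and the Lap2b profile 1.49 ± 0.71 and 0.29 ± 1.24. On chromosomes 6, 12 and 14 as wholes, 50.5%, 51.9% and 56.8% of bins lay in both lists.

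**Figure D1:**
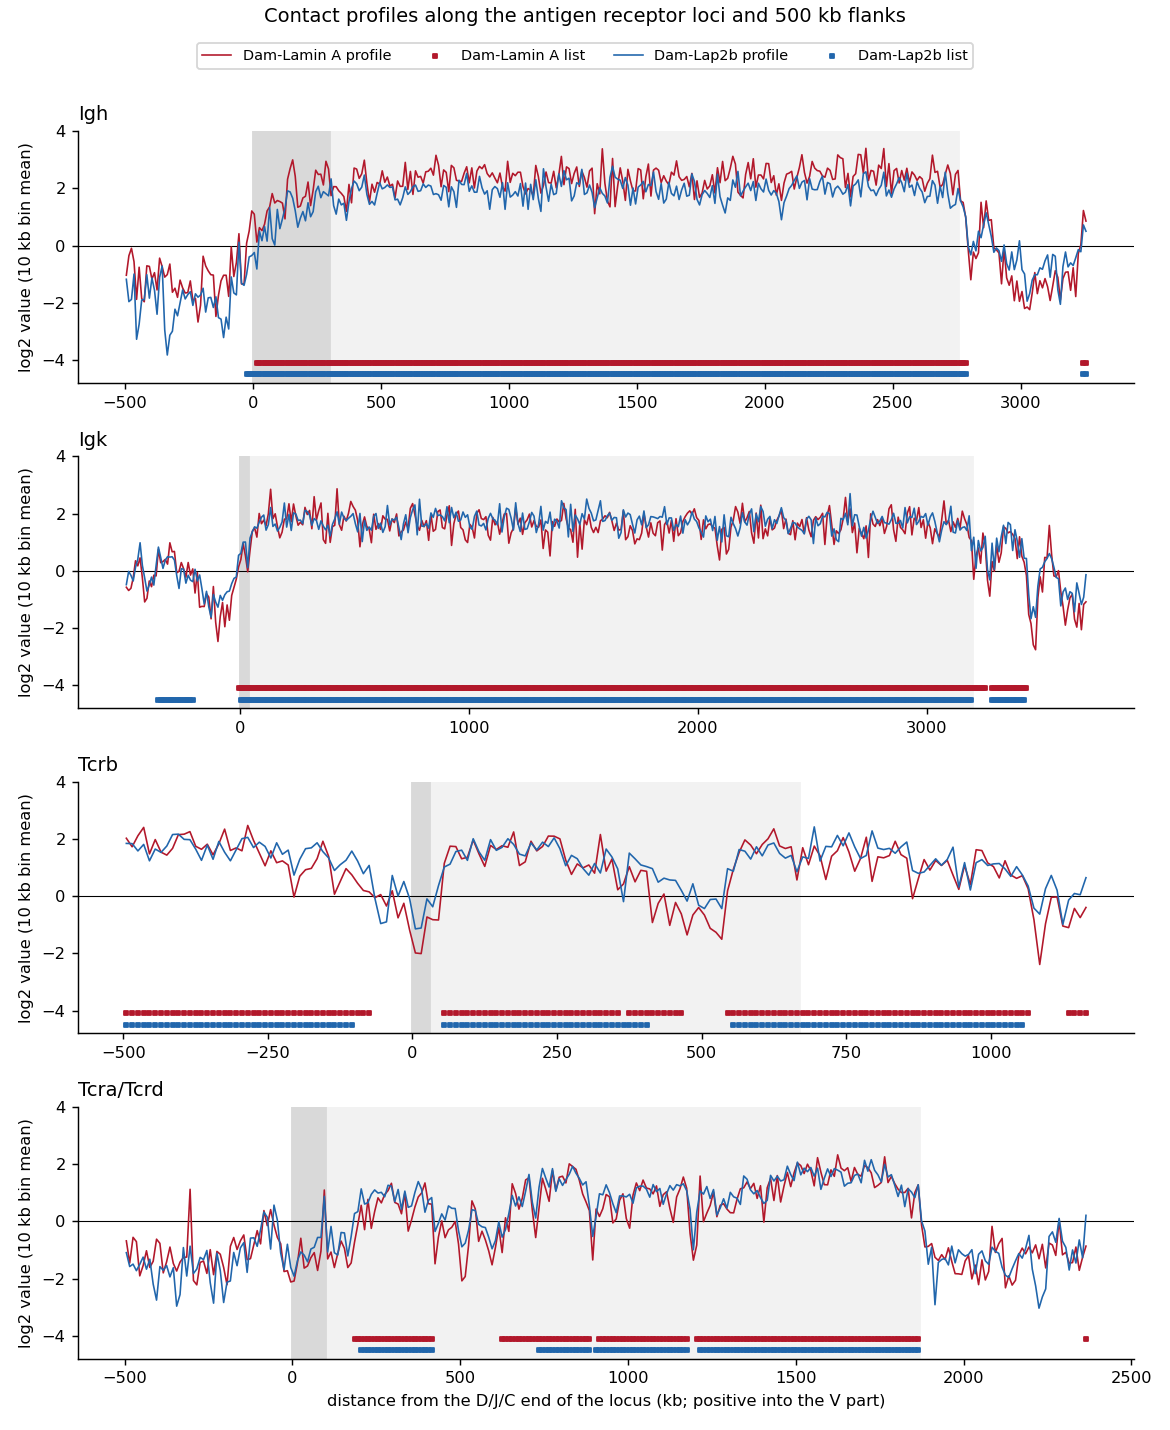
Mean log2 value per 10 kb bin (y axis) of the LMNA (red) and Lap2b (blue) profiles against distance from the D/J/C end of each locus (x axis, kb, positive into the V part), with 500 kb of flank on each side. Light grey marks the locus, dark grey its D/J/C end, and squares at the bottom mark bins in each LAD list. Igh and Igk form plateaus above 0 in both profiles, and Tcrb and Tcra/Tcrd fall below 0 at the dark grey end.

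The deposited values of the LMNA profile took the form of 0.0846, and those of the Lap2b profile of 0.0222, plus the log2 ratio of small whole numbers with 1 denominator for both profiles, found for 99.9968% of fragments. The numerators less 1 were taken as fusion reads and the denominator less 1 as reads of a single reference, presumed to be the Dam-only library, which no header or label states. They are lower bounds where numbers had a common factor. The LMNA library summed to 139442195 reads, the Lap2b library to 151510650 and the reference to 153452236. A fragment held a median of 10, 10 and 7 reads genome-wide and 13, 12 and 3 in the 4 loci. Single fragments were imprecise, while a bin of Igh held a median of 870.5, 707 and 157 reads. Fragments with a recovered 0 in all 3 libraries made up 1.79 to 2.58% of each locus and 2.75% of the genome, and 6.77% of the 100 kb at the constant-gene end of Igh. How reads from near-identical V segments were assigned is not given in the sources used here. Reads amplified without molecular identifiers are not independent molecules.

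Igh had the highest levels of the 4 loci in both profiles. The LMNA profile averaged 2.30 ± 0.50 over its 276 bins (0.12 to 3.40), and the Lap2b profile 1.83 ± 0.49 (−0.82 to 2.77). Of all bins of the genome, 3.33% lay above the Igh mean in the former profile and 8.49% in the latter. Among bins in both lists these shares were 6.85% and 17.6%. Every bin was above 0 in the LMNA profile, where 55.2% of all bins were, and 99.3% were in the Lap2b profile, where 59.3% of all bins were.

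A single run of 274 bins above 0 in both profiles covered Igh from 114510001 to 117250000, 2740 of its 2760 kb. Each list had 1 LAD there, chromosome 12 114504453 to 117281789 in the LMNA list, which left out the first 14.5 kb of the locus, and 114459939 to 117282820 in the Lap2b list. At the V end the listed edges lay 31.8 and 32.8 kb beyond the locus. There the level fell by 2.05 and 1.68 over 10 kb at the former edge, in the LMNA and Lap2b profiles, and by 2.21 and 1.74 at the latter. The V-side flank averaged −0.68 ± 1.11 and −0.32 ± 0.79.

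Within Igh the V array was even. The distal portion averaged 2.44 ± 0.39 and 1.94 ± 0.32 in the LMNA and Lap2b profiles, and the proximal portion 2.29 ± 0.42 and 1.91 ± 0.36. The differences of 0.15 and 0.03 were smaller than the SD over bins, and the latter changed sign with length weighting (−0.01), with summed reads (−0.02) and with a D/J/C end of double length (−0.0058). Over the 28 windows of 100 kb the LMNA profile ranged from 1.05 to 2.65 and the other from 0.33 to 2.14, with the lowest in the window at the constant-gene end. The highest bin of the locus by the mean of both profiles was 116880001 to 116890000, with 3.40 and 2.58 over 34 fragments.

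The D/J/C end of Igh, a length set to take in the constant genes from Igha to Ighm and the J and D segments, was lower and graded. It averaged 1.73 ± 0.75 and 1.04 ± 0.73 in the LMNA and Lap2b profiles, below the V part by 0.63 and 0.89. Both values exceeded the SD of the V part (0.41 and 0.34). Against the SD of the end itself, the LMNA difference was smaller (0.63 against 0.75) and the Lap2b difference larger (0.89 against 0.73). The ranges of bins overlapped. In windows of 50 kb from the constant-gene border inwards, the LMNA profile took the values 0.62, 1.49, 1.79, 1.96, 1.98 and 2.54, and the Lap2b profile 0.05, 0.60, 1.32, 1.13, 1.29 and 1.83. In the 50 kb just outside they were −0.18 and −0.89. The rise did not go on into the V part. Its first windows of 50 kb had 1.92 and 1.85 in the LMNA profile and 1.57 and 1.63 in the Lap2b profile. The innermost window of the end was above the V part mean in the LMNA profile (2.54 against 2.37) and below it in the Lap2b profile (1.83 against 1.93). The lowest bin, 114500001 to 114510000, had 0.12 and −0.82 over 19 fragments. It held the edge of the LMNA list, at which the profile of that label stepped by 0.18 and the other by 2.43.

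Igk was a plateau of similar evenness at a lower level. Its 320 bins averaged 1.60 ± 0.43 (−0.03 to 2.87) in the LMNA profile and 1.72 ± 0.33 (0.11 to 2.70) in the Lap2b profile. Of all bins, 16.4% and 11.8% lay above these means. All 320 bins lay in both lists, and 319 were above 0 in both profiles. The first 3160 kb, 316 bins from 67500001 to 70660000, formed 1 run.

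The distal and proximal portions of the Igk V array differed little. They averaged 1.57 ± 0.40 and 1.67 ± 0.41 in the LMNA profile and 1.69 ± 0.30 and 1.78 ± 0.30 in the Lap2b profile, 158 bins each. These differences of −0.10 and −0.09 are within the SD over bins. The highest bin, 70560001 to 70570000, lay 130 kb from the constant-gene border, with 2.85 and 2.21 over 32 fragments.

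At the J/C end of Igk, a length set to take in Igkj1 to Igkj5 and Igkc, contact dropped within 50 kb. The LMNA profile had the values −0.03, 0.52, 0.95 and 0.40 in the 4 bins from the V side outwards, and the Lap2b profile 0.11, 1.01, 1.00 and 0.61. The lowest bin of the locus, 70660001 to 70670000, was thus the one nearest the V array and not the outermost. The means of 0.46 ± 0.40 and 0.68 ± 0.42 were below those of the V part by 1.16 and 1.05. With an end of 80 kb the differences were 0.80 and 0.70. Outside the border the windows of 50 kb fell to −0.66 and −0.22, and then to −1.66 and −0.94.

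Listed LADs ended at this border in both lists, at 70709039 in the LMNA list and 70697069 in the Lap2b list, the former just beyond the locus and the latter 2.93 kb inside it. At the V end the LADs began at 67435855 and 67495910. Igkv2-137 is the outermost V segment there by RefSeq order. The V-side flank had 15 of its 50 bins in both lists and averaged −0.18 ± 1.16 and 0.12 ± 0.92.

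**Figure D2:**
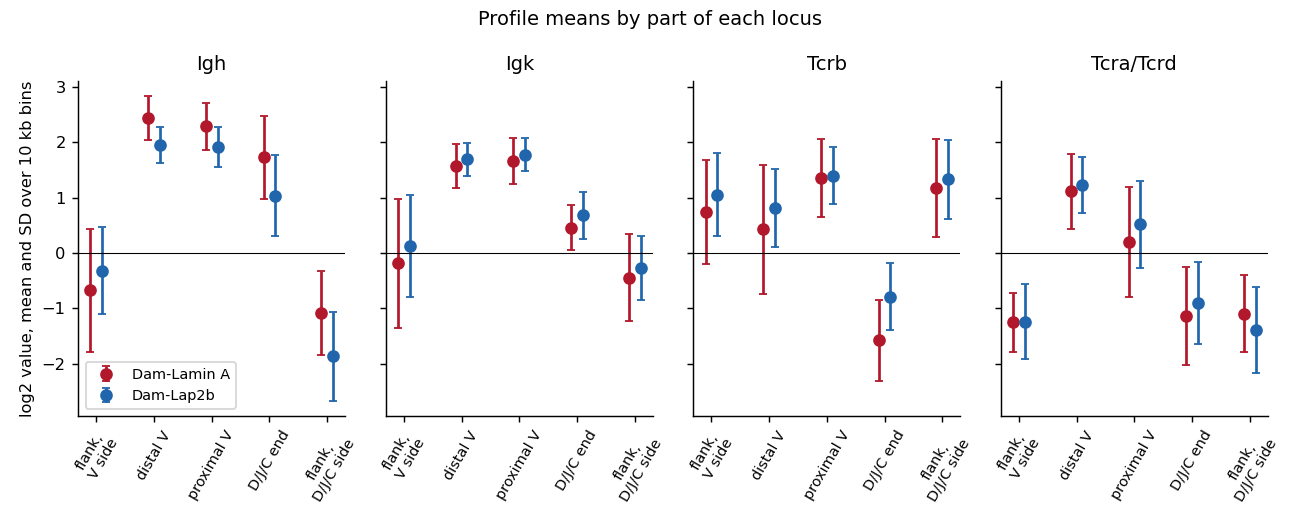
Mean log2 value over 10 kb bins (points) with SD over bins (bars) in the parts of each locus and its 500 kb flanks, for the LMNA (red) and Lap2b (blue) profiles. The V portions of Igh and Igk lie above 1.5 in both profiles, and the D/J/C ends of Tcrb and Tcra/Tcrd lie below 0.

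Tcrb was split into stretches in and out of lamina domains. Its 67 bins averaged 0.78 ± 1.17 (−2.01 to 2.35) in the LMNA profile and 1.02 ± 0.78 (−1.14 to 2.04) in the Lap2b profile, and 70.7% of its length lay in both lists. The locus stood in a region of high contact, unlike the other 3. Its flanks averaged 0.74 ± 0.95 and 1.06 ± 0.75 on the V side and 1.17 ± 0.88 and 1.33 ± 0.71 on the D/J/C side. The locus was below both flanks together by 0.18 and 0.17. That direction depended on the width of the flanks: with 1 Mb on each side the locus was above them, by 0.31 and 0.29.

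The outermost 100 kb of Tcrb on the V side averaged 1.71 and 1.47, and the highest bin of the locus, 40880001 to 40890000, had 2.35 and 1.86. Beyond it the level fell. The longest run of bins below 0 in both profiles was 40970001 to 41020000, where 5 bins averaged −0.99 and −0.28. The LMNA list left out 40971417 to 41035887 (64.5 kb), and the Lap2b list left out a longer stretch, 40959858 to 41095940 (136 kb). In that longer stretch the LMNA profile averaged −0.72 and the Lap2b profile 0.15, so the profiles were on opposite sides of 0. The LAD of the LMNA list that overlaps it, 41035888 to 41141802, averaged 0.03 and 0.83. The short break of that list that follows, 41141803 to 41151270 (9.47 kb), had 0.38 and −0.33 over 32 fragments.

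Between this gap and the D/J/C end, 310 kb from 41150001 to 41460000 formed 1 run of 31 bins above 0, with means of 1.46 and 1.47. By RefSeq order this side of the array holds the last V segments up to Trbv30 and then the trypsinogen genes, which are expressed in the pancreas. The proximal portion averaged 1.35 ± 0.71 and 1.39 ± 0.52, and the distal portion, which held the gap, 0.43 ± 1.16 and 0.82 ± 0.71. The distal minus proximal differences were −0.92 and −0.58. In size they were inside the SD of the distal bins (1.16 and 0.71) and above that of the proximal bins (0.71 and 0.52).

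The D/J/C end of Tcrb lay outside the lists for its whole 30 kb. Its 3 bins had −0.73, −2.01 and −1.99 in the LMNA profile and −0.09, −1.11 and −1.14 in the Lap2b profile, from the V side outwards. Both means, −1.57 and −0.78, were below the V part by 2.47 and 1.89, and no bin of the end was above 0 in either profile. Of all bins of the genome, 90.4% and 75.7% lay above these means. The lowest bin was the outermost, 41500001 to 41510000. The LADs of the V side ended 45.4 and 51.0 kb from the outer border, and the following 50 kb outwards averaged −0.47 and 0.05. With 3 bins this end rests on 72 fragments.

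Tcra/Tcrd was higher in its distal V portion than in its proximal one, and lowest at its D/J/C end. Its 187 bins averaged 0.56 ± 1.04 (−2.08 to 2.33) in the LMNA profile and 0.78 ± 0.84 (−1.91 to 2.16) in the Lap2b profile, and 69.8% of its length lay in both lists. The distal V portion averaged 1.11 ± 0.68 and 1.23 ± 0.50, the proximal portion 0.20 ± 0.99 and 0.52 ± 0.78, and the D/J/C end −1.13 ± 0.89 and −0.90 ± 0.75. Of the length of these parts, 97.3%, 49.96% and 0% lay in both lists. The distal portion was above the proximal one by 0.92 and 0.71. This is within the SD of the proximal bins (0.99 and 0.78) and above that of the distal bins (0.68 and 0.50).

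The V end of Tcra/Tcrd, where Trav1 is the outermost segment by RefSeq order, was a sharp border. The listed LADs began at 52977790 and 52979379, 2.21 and 0.62 kb outside the locus, and the step over 10 kb was 1.49 and 1.45 at the former edge and 1.44 and 1.34 at the latter. The V-side flank averaged −1.25 ± 0.53 and −1.24 ± 0.68, with 47 of its 50 bins below 0 in both profiles. The first 460 kb inside, 52980001 to 53440000, formed the longest run above 0, with means of 1.502 and 1.52, and the highest bin was 53080001 to 53090000 with 2.26 and 1.99.

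Further along the Tcra/Tcrd V array the domains were interrupted. Each list held 4 LADs in the locus. The narrowest break of the LMNA list, 53647234 to 53665811 (18.6 kb), averaged −1.32 and −0.71, and the corresponding break of the Lap2b list, 53641620 to 53665600, −1.29 and −0.44. The next breaks were 53937453 to 53962124 in the former list, with −0.20 and −0.05, and 53948142 to 53959929 in the latter, with −1.31 and −0.43. The widest break was 54234367 to 54430804 (196 kb) in the former list and 54119609 to 54430804 (311 kb) in the latter, with means of −0.60 and −0.11 and of −0.22 and 0.11. Both lists placed its far edge at the identical base, with steps of 2.65 and 1.29.

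The last LADs of Tcra/Tcrd ended 179 and 204 kb before the outer border, so that the D/J/C end and part of the proximal V portion lay outside the lists. The 9 bins from 54760001 to 54850000, the longest run below 0 in both profiles, averaged −1.38 and −1.10, and the lowest bin was the outermost, 54840001 to 54850000, with −2.08 and −1.91. The remaining bin of the end, 54750001 to 54760000, stood apart with 1.10 and 0.88 over 34 fragments. It was singled out after its values had been seen. By RefSeq order the next protein-coding gene beyond is Dad1, a subunit of the oligosaccharyltransferase. The flank on that side averaged −1.09 ± 0.70 and −1.39 ± 0.78. That was close to the D/J/C end in the LMNA profile (−1.13) and below it in the Lap2b profile (−0.90).

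Placed side by side, the V part was above the D/J/C end in all 4 loci and both profiles. The differences were 0.63 and 0.89 in Igh, 1.16 and 1.05 in Igk, 2.47 and 1.89 in Tcrb and 1.79 and 1.78 in Tcra/Tcrd. They stayed above 0 in all alternatives run. The ends differ in length, from 30 to 300 kb, and all lie at a border of the locus, so position at a border and gene content cannot be told apart here. Against both flanks together the loci were higher by 3.17 and 2.92 in Igh, 1.91 and 1.79 in Igk and 1.73 and 2.10 in Tcra/Tcrd. With 1 Mb flanks the Tcra/Tcrd values were 0.95 and 1.33.

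**Figure D3:**
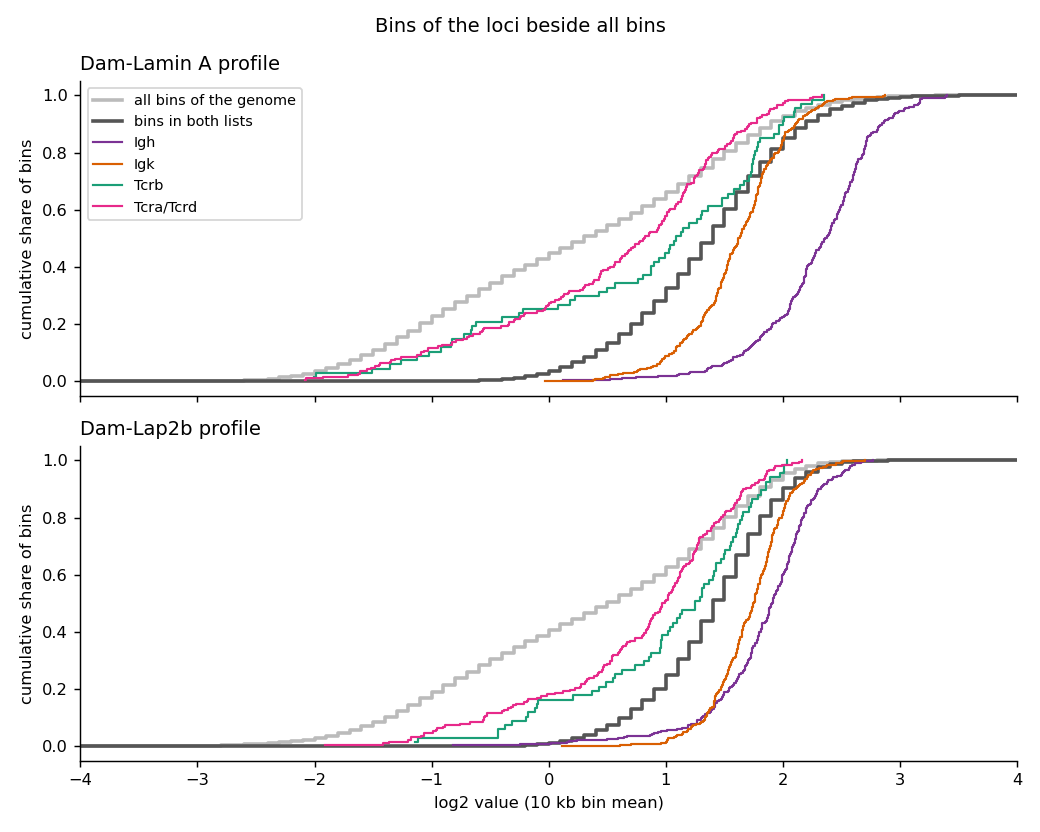
Cumulative share of 10 kb bins (y axis) against log2 value (x axis) in the LMNA (top) and Lap2b (bottom) profiles, for the 4 loci, all bins of the genome (light grey) and bins in both lists (dark grey). The Igh curve lies to the right of the dark grey curve over nearly all its range and the Igk curve does so at low and middle values, while the Tcra/Tcrd curve stays to the left and the Tcrb curve starts there.

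The balance between the profiles was not the same in Igh as in the other loci. In Igh the LMNA profile was the higher in 243 of 276 bins (88.0%), where it was in 48.2% of all bins in both lists. In Igk, whose bins all lay in both lists, it was the higher in 143 of 320 (44.7%), beside the same 48.2%. It was the higher in 25 of 67 bins (37.3%) in Tcrb and 59 of 187 (31.6%) in Tcra/Tcrd. Over all bins of the genome it was the higher in 44.2%. The LMNA value less the Lap2b value was 0.47 ± 0.43 (SD over bins) in Igh, −0.12 ± 0.44 in Igk, −0.24 ± 0.58 in Tcrb and −0.22 ± 0.43 in Tcra/Tcrd. Of all bins in both lists, 15.5% had a larger difference than the Igh mean. The flank beyond the D/J/C end of Igh had a difference of 0.79 ± 0.79, and the V-side flank −0.36 ± 0.59.

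The size of this difference depended on how fragments were averaged. Weighted by fragment length, it was 0.10 in Igh, −0.54 in Igk, −0.68 in Tcrb and −0.56 in Tcra/Tcrd. The same weighting moved the mean over all bins in both lists from −0.05 to −0.44, so that Igh stayed above that mean. With 1 sample a group the difference between fusions has no replicate check.

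The ratios were then resolved into the reads of each library per kb, relative to the mean of the chromosome, since chromosome 12 had fewer reads per kb than the genome in all 3 libraries (0.81, 0.79 and 0.76 of the genome mean). In the V part of Igh the LMNA library had 2.04 and the Lap2b library 1.57 times the chromosome mean and the reference 0.36. In the V part of Igk they had 1.13 and 1.17 and the reference 0.33. Against the chromosome mean, the high ratios of Igk thus went with a low reference and fusion reads near that mean. In Igh the fusion reads were above it as well. Relative to the genome mean, the LMNA library, the Lap2b library and the reference had 1.65, 1.25 and 0.28 in the V part of Igh. In that of Igk they had 1.21, 1.32 and 0.34, so on this scale Lap2b reads were higher in Igk than in Igh.

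In the T cell receptor loci the reference showed the larger range. The V parts had 1.09, 1.21 and 0.58 (LMNA, Lap2b and reference) in Tcrb and 0.91, 1.00 and 0.64 in Tcra/Tcrd. At the D/J/C ends the fusions had 0.75 and 1.16 in Tcrb and 0.81 and 1.01 in Tcra/Tcrd, and the reference 2.36 and 2.33. At the D/J/C ends of Igh and Igk the reference had 0.59 and 0.57, below the chromosome mean. Unfused Dam is known to methylate accessible chromatin more, and whether accessibility had a part in these values was not tested.

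**Figure D4:**
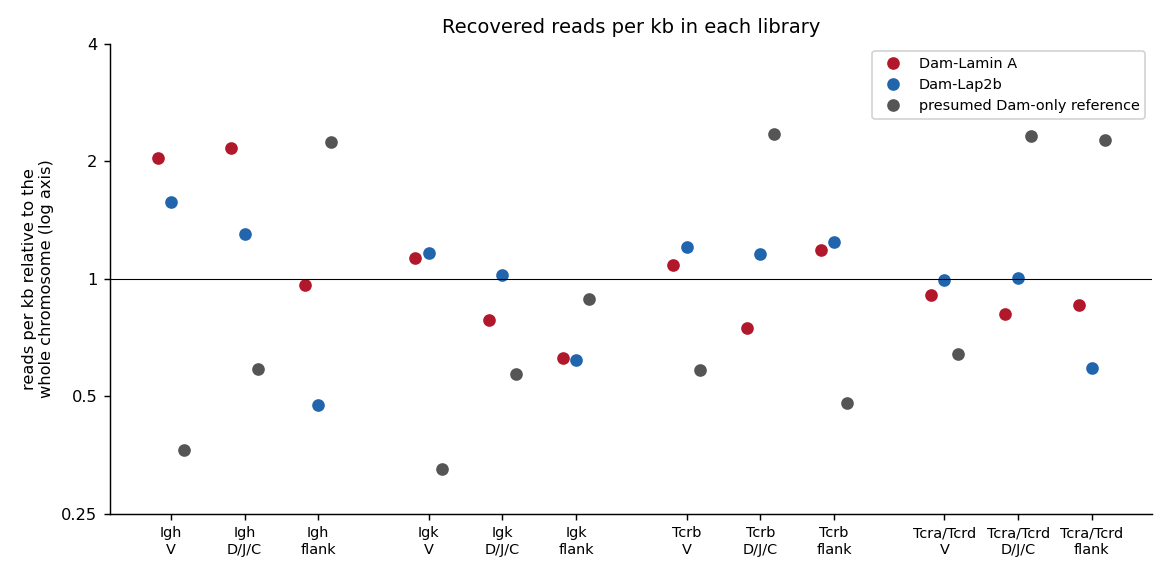
Recovered reads per kb relative to the whole chromosome (y axis, log scale) in the V part, the D/J/C end and the 500 kb flank beyond it for each locus, in the LMNA (red) and Lap2b (blue) libraries and the presumed Dam-only reference (grey), with 1 point per library. The reference lies at 0.33 to 0.64 in the V parts and at 2.33 to 2.36 in the D/J/C ends of Tcrb and Tcra/Tcrd.

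The distance between GATC sites differed among the loci and their parts. The median fragment was 219.5 bp long in Igh, 210 bp in Igk, 237 bp in Tcrb and 267 bp in Tcra/Tcrd, against 258 bp in the genome. It was 267 to 296 bp in the flanks of Igh, Igk and Tcra/Tcrd, and 246 and 234 bp in the V-side and D/J/C-side flanks of Tcrb. The D/J/C end had shorter fragments than the V part in Igh (197 and 222.5 bp) and Tcrb (226 and 239 bp), and longer ones in Igk (256.5 and 210 bp) and Tcra/Tcrd (315 and 265.5 bp). Between the parts of a locus, length and level thus had no single direction. Across whole loci, Igk and Igh had the shortest median fragments and the highest means in both profiles. Tcra/Tcrd had the longest fragments and the lowest means. The part of fragment length in the levels was not tested beyond the weighting given above.

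Edges of listed LADs inside the loci went with the profile of the other label. Of the 11 edges of the Lap2b list inside a locus, 10 had the larger 10 kb step in the LMNA profile, where 93.4% of all edges of that list did. Of the 13 edges of the LMNA list, 10 had the larger step in the Lap2b profile, against 62.3% genome-wide. The counts are near that background. Each list and profile is therefore named by its label, and stretches in 1 list alone are not read as belonging to that fusion.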

How the data were processed

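DamID values of wild-type mouse embryonic fibroblasts were used for the Lamin A and Lap2b fusions of Dam, 1 sample each, and no separate file of the Dam-only sample was used. Per the labels, amplified DNA was ligated, sonicated and sequenced, and the submitters' processing notes name Bowtie and mm9. The profiles as deposited by the authors hold log2 values per GATC fragment, and the lists as deposited give only where each domain starts and ends. Counting, normalization and domain caller are not given in the sources used here. Coordinates are on mm9, counted from 1.

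Fragment values were averaged over 10 kb bins, keeping bins of 5 or more fragments (Python 3.11.15, pandas 2.3.3, numpy 2.4.6). Parts, flanks of 500 kb and overlap with the lists in base pairs were computed as described in the report, and bins were assigned to LADs by their middle. Whole numbers were recovered with denominators up to 5000 and tested on simulated data. Loci, parts and rules were chosen with earlier results of these data known. Regions were named by rule: the highest and lowest bin of a locus by the mean of both profiles, listed edges inside loci and the longest run below 0 in both. Runs above 0 were added after seeing the data. Genes are named by RefSeq order alone. Alternatives were other bins, weights, fragment filters, summed reads, flanks, end lengths and joined LADs. Gene names and promoters are from RefSeq (GRCm38.p6), and no gene was placed on mm9. No test was run, since each group had 1 sample.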

Additional observations from a re-analysis of the deposited data

How the results depend on the processing

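Of 276 values recomputed under the alternatives, 265 kept their direction and moved by less than 1 SD over the bins of the locus, or, for shares of bins, stayed within the exact 95% interval. The exceptions were these. The distal minus proximal difference of Igh in the Lap2b profile became −0.010 with length weighting, −0.019 with summed recovered reads and −0.0058 with a D/J/C end of double length. With 1 Mb flanks the excess of Igh over its flanks in the LMNA profile became 2.47, and that of Tcrb became 0.31 and 0.29 in the LMNA and Lap2b profiles. With the end of Igk doubled, its V part stood 0.70 above it in the Lap2b profile. The share of bins above 0 became 100% in Igk for the LMNA profile with 20 kb bins and with summed reads, 94.03% in Tcrb for the Lap2b profile with length weighting, and 72.2% in Tcra/Tcrd for that profile when the genome-wide median bin was the threshold. The cause was not tested. Dropping the minimum of 5 fragments changed no value, and these unchanged values are counted among the 265. With 50 kb on each side of an edge, chosen after seeing the data, 3 of the steps inside loci changed sign: in the LMNA profile to −0.38 at 41141802 and to 0.62 at 41151271 in Tcrb, and in the Lap2b profile to −0.015 at 53948141 in Tcra/Tcrd. Of 112 further values, for listed edges and for the highest and lowest bins, 91 kept direction and size, 17 moved and 4 changed sign. Apart from the lowest bins of Igh and Igk, the values that moved or changed sign were steps at edges measured over 50 kb. The lowest bin of Igh in the LMNA profile became 0.88 with summed reads. The lowest bin of Igk in the LMNA profile became 0.26 with summed reads. No paired analysis was possible because each group had 1 sample. The D/J/C ends of Igk and Tcrb rest on 4 and 3 bins.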
